A study of Sus scrofa with 12 samples.

Results

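The 10 genes described here encode muscle fibre proteins at the ends of the sarcomere or at the membrane, and a small heat shock protein. They were chosen by name, and for each of them the H3K27ac BL-HiChIP loops anchored no more than 1 kb from either gene end, the chromatin-associated RNA (caRNA) listed under its name and all RNAs on the 1-kb DNA bins within 5 kb of its ends were collected in every library. They are 10 of 30371 genes of the RefSeq table of the pig genome (Sscrofa11.1). In BL-HiChIP, DNA pieces that touch in the nucleus are joined by a linker and pulled down with an antibody to H3K27ac, an acetylated histone found at working promoters and enhancers, and in GRID-seq RNA is linked to the DNA beside it. Longissimus muscle of 2-week-old piglets of 2 breeds was used, Large White (LW), a commercial lean breed, and Meishan (MS), a local Chinese breed, with no treatment, and each breed gave 2 libraries in each assay. Whether the libraries of a breed came from different piglets is not stated in the sources used here, so p-values measure only the spread between these libraries, which may be technical. The labels describe GRID-seq on cells fixed with DSG and formaldehyde, and the methods describe ground frozen muscle fixed with formaldehyde alone.

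A skeletal muscle fibre is packed with sarcomeres, the contractile units in which actin and myosin filaments slide past each other. The Z-disc is the protein plate at each end of a sarcomere, where actin filaments are cross-linked by alpha-actinin and where many adaptor proteins link the contractile lattice to signalling and to the membrane. The membrane itself is tied to the cytoskeleton and the matrix by the dystrophin complex, and tears in it are closed by a calcium-triggered fusion of vesicles. Inherited faults in several of these genes cause myofibrillar or limb-girdle myopathies in humans.

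Among the Z-disc genes, LDB3 (ZASP, an adaptor with a PDZ domain that binds alpha-actinin) lies at chr14:87660961-87722249. MYOZ1 (calsarcin 2, which binds calcineurin and alpha-actinin) lies at chr14:76445109-76453014. MYOT (myotilin, an actin and filamin binding protein) lies at chr2:139899245-139919095, FLNC (filamin C, a muscle actin cross-linker) at chr18:19759734-19787616 and PDLIM3 (an actinin-associated LIM protein) at chr15:46516178-46546658. CSRP3 (muscle LIM protein) lies at chr2:40219288-40240614. At the membrane, DYSF (dysferlin, a calcium sensor of membrane repair) lies at chr3:71020143-71237658, SGCA (alpha-sarcoglycan of the dystrophin complex) at chr12:26356691-26368561 and POPDC2 (a cAMP-binding Popeye domain protein) at chr13:140601522-140621928. HSPB3, a small heat shock protein of muscle, lies at chr16:33716458-33717402.

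The deposited lists held 57028 and 43282 loops in LW and 45061 and 33353 loops in MS, replicate 1 first. For GRID-seq they held 519 to 681 RNAs and 7172517 to 9943666 RNA reads per library, and no listed RNA had fewer than 432 reads, so an RNA that is not listed is not shown to be absent. Of 10 marker RNAs of skeletal muscle fibres, CKM, NEB, TNNI2, TNNT3 and TTN were listed in all 4 libraries and MYLPF in LW replicate 1, while ACTA1, MYH1, MYH4 and RYR1 were listed in none. No marker of adipocytes, endothelium, immune cells, smooth muscle, satellite cells or erythroid cells was listed in any library, and of the 5 fibroblast markers COL1A1 and COL1A2 were listed in 4 libraries and COL3A1 in 3.

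All 10 genes had loops, but in very different numbers. The strength of a loop is given as the −log10 of its FDR, and the loop score of a gene is the sum of this value over the loops at its ends. Between 50 and 84 loops touched the 10 genes in a library, 168 different loops in all. The loop score was above the median of all 15431 genes with a loop in 9 genes in each replicate 1 library and in all 10 in each replicate 2 library. The median score of the 10 genes was 66.8 and 141 in LW against 27.8 and 101 in MS, against 8.77 and 5.90 and 6.12 and 4.33 for all genes with a loop.

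**Figure D1:**
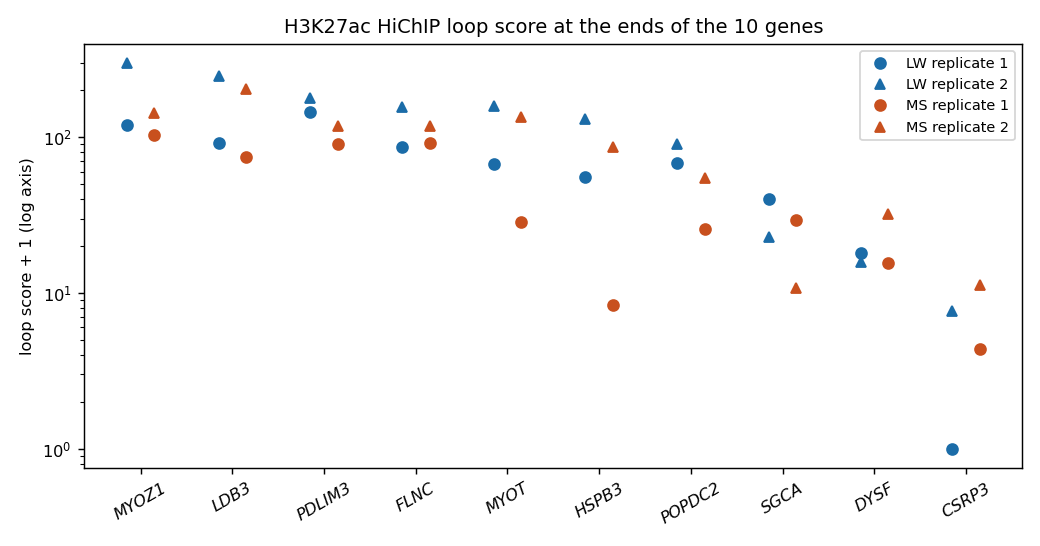
Loop score plus 1 on a log axis for each of the 10 genes in each library, with blue for LW, orange for MS, circles for replicate 1 and triangles for replicate 2. MYOZ1 and LDB3 stand highest, CSRP3 lowest with a score of 0 in LW replicate 1, and in most genes the triangles lie above the circles in both breeds.

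MYOZ1, LDB3, PDLIM3, FLNC and MYOT, all Z-disc genes, had the 5 highest loop scores when summed over the libraries. MYOZ1 had a score of 118 and 297 in LW against 102 and 143 in MS. LDB3 had 90.1 and 247 in LW and 73.6 and 202 in MS. In both genes the replicate 2 library was the higher one in either breed, and the breeds overlapped. PDLIM3 had a score of 145 and 176 in LW against 89.9 and 117 in MS, so that both LW libraries lay above both MS libraries. FLNC had 85.4 and 154 in LW and 91.0 and 117 in MS, and MYOT had 66.1 and 158 in LW and 27.4 and 134 in MS. In these 5 genes the score was higher than in 85.5% to 99.6% of the genes with a loop, and MYOT in MS replicate 1 was the lowest of these values.

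CSRP3, also a Z-disc gene, stood at the other end of the range with no loop in LW replicate 1 and 1 loop in each of the other libraries. Its score was 0 and 6.62 in LW against 3.36 and 10.2 in MS. Among the membrane genes, POPDC2 had a score of 67.5 and 89.6 in LW against 24.8 and 53.7 in MS, with both LW libraries above both MS libraries. SGCA had 39.0 and 21.7 in LW and 28.1 and 9.75 in MS, and here replicate 1 was the higher library in both breeds. DYSF, the longest of the 10 genes at 218 kb, had only 2 to 5 loops per library and a score of 16.9 and 14.8 in LW against 14.6 and 31.3 in MS. HSPB3, the shortest at 0.945 kb, had 54.5 and 129 in LW and 7.37 and 85.9 in MS, and its MS libraries were further apart than the breeds.

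No difference between the breeds in loop score passed the test in any of the 10 genes. With limma on the quantile-normalized log2(score + 1) scale, 0% of the 15431 genes had an adjusted p under 0.05, and 0 of the 10 had an unadjusted p under 0.05, against 5.33% of all genes, which were the same genes that passed the study's threshold of an unadjusted p under 0.05 and a log2 fold change above 1.5. DESeq2 on the rounded score, not normalized between libraries, also called 0 genes. The paper names DYSF and POPDC2 among the genes up-regulated in LW at its own threshold. It scored active promoters, while the score here takes loops at both gene ends. It also merged the libraries of a breed for its later steps and used quantile normalization and DESeq2. The measure, the inputs and the test thus differ. Neither gene passed here, and in DYSF the difference, LW minus MS, was −0.67 (SE 0.80, adjusted p = 0.992 with limma). The largest differences, LW minus MS, were 1.52 in HSPB3 (SE 1.20, adjusted p = 0.992 with limma), −1.48 in CSRP3 (SE 1.19, adjusted p = 0.992) and 0.91 in POPDC2 (SE 0.79, adjusted p = 0.992). In HSPB3 the value rested on MS replicate 1, without which it was −0.12, and in CSRP3 on LW replicate 1, without which it was 0.02. The median difference of the 10 genes was 0.42, against 0.02 over all genes tested. On the scores before normalization POPDC2 and PDLIM3, 2 of the 10, had libraries that did not overlap between the breeds, against 28.1% of all genes, of which 21.1% of all genes had LW higher, as these 2 did, and 7.02% had MS higher. The LW lists held more loops than the MS lists of the same replicate. After quantile normalization 4 of the 10 did not overlap, against 31.1% of all genes, with LW higher in POPDC2, MYOZ1 and PDLIM3 (14.3% of all genes) and MS higher in DYSF (16.8%).

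The loops of the 10 genes spanned 5 to 1700 kb with a median of 50 kb, the same median as over all 122406 loops. Of the 168 loops, 136 led to a bin outside the gene, 23 to a bin inside it, and 9 joined bins that were all at the gene ends. For the 7 genes with a known strand, 104 loops touched the start of the gene and 47 the other end, and a loop can touch both. In POPDC2 the start had 17 loops and the other end 1, in MYOZ1 22 and 4, and in LDB3 25 and 10, while SGCA had 6 at each.

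**Figure D2:**
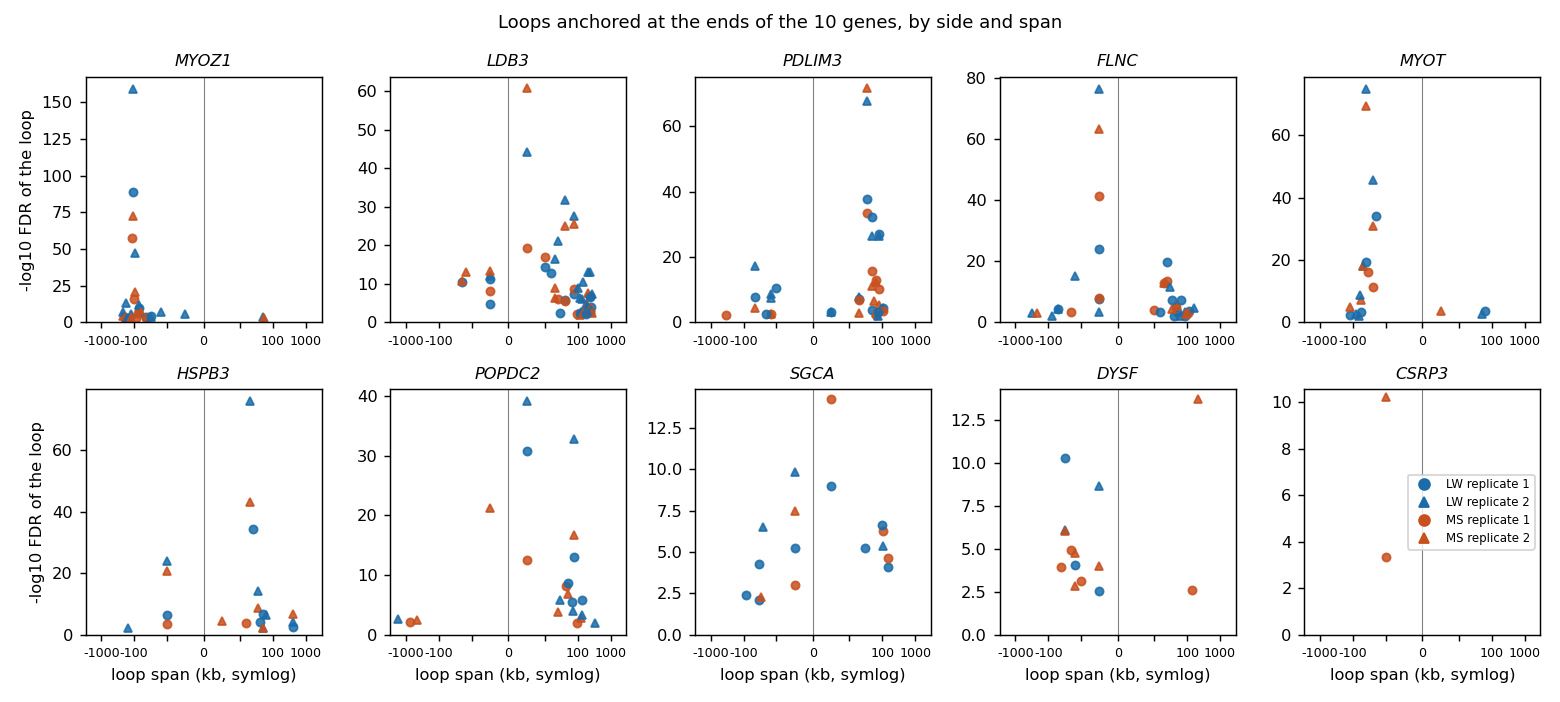
Each loop of the 10 genes that leaves the gene ends, with its span in kb on a symmetric log axis (negative towards lower positions on the chromosome) and its −log10 FDR on the y axis, which has its own scale in each panel. Blue is LW, orange MS, circles replicate 1 and triangles replicate 2. The loops of MYOZ1 and MYOT lie almost wholly on the lower side, where those of MYOZ1 reach 159, and those of HSPB3 and PDLIM3 reach 76.0 and 71.6 on the upper side.

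The strongest loop of the set joined the start of MYOZ1 to a bin 110 kb away, chr14:76340001-76345000, inside USP54. Its −log10 FDR was 88.5 and 159 in LW and 72.8 in MS replicate 2. In MS replicate 1 the loop called was the next bin, 115 kb away, at 57.7. This loop made up 48.6% of the summed loop score of MYOZ1 over the 4 libraries. Weaker loops of MYOZ1 in both replicate 2 libraries reached the ends of FUT11, MSS51 and PPP3CB, which encodes a catalytic subunit of calcineurin.

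PDLIM3 was joined to the neighbourhood of another Z-disc associated gene. From its start, a loop of 35 kb led to chr15:46580001-46585000, within 1 kb of an end of SORBS2, an adaptor of the actin cytoskeleton, and it was called in all 4 libraries. Its −log10 FDR was 37.7 and 67.7 in LW against 33.6 and 71.6 in MS. A second loop of 50 kb from the start to chr15:46595001-46600000 had 32.2 and 26.3 in LW and 15.7 and 11.09 in MS, with both LW libraries above both MS libraries. The loop of 80 kb from the other end of PDLIM3 to this same bin had 27.1 and 26.4 in LW against 10.1 and 5.47 in MS. Both loops to this bin had higher values in LW, but these values were not normalized between libraries. The LW lists held more loops than the MS lists of the same replicate. Single loops were not tested, and the share of all loops with such a gap was not counted. The far bins of the 35 kb and 50 kb loops also overlap the gene C15H4orf47. Loops from PDLIM3 reached an end of CCDC110 in all 4 libraries and an end of C15H4orf47 in LW replicate 2 and MS replicate 1.

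At LDB3, the loop of 80 kb from the start to chr14:87740001-87745000 at the end of BMPR1A, a receptor of bone morphogenetic proteins, was called in every library, at a −log10 FDR of 7.34 and 27.7 in LW against 8.64 and 25.5 in MS. The loop of 40 kb from the start into the body of LDB3 was also called in all 4, with 5.82 and 31.9 in LW and 5.45 and 24.9 in MS. In both loops the replicate 2 libraries were several times higher than the replicate 1 libraries in either breed, a larger gap than that between the breeds. ADIRF was joined to LDB3 in both replicate 2 libraries.

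At MYOT, the start was joined to chr2:139860001-139865000, 40 kb away, at the end of LOC106509573 and of LOC110259497. Its −log10 FDR was 19.2 and 75.0 in LW and 69.3 in MS replicate 2, and in MS replicate 1 a loop from the next bin at MYOT led to the same place at 16.1. The MYOT RNA of the GRID-seq lists starts in this same bin, at chr2:139861005, upstream of the RefSeq start. HNRNPA0, which encodes an RNA-binding protein, was joined to MYOT in LW replicate 1 and MS replicate 2.

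At FLNC, the strongest loop linked neighbouring bins at its start and had a −log10 FDR of 23.9 and 76.5 in LW against 41.4 and 63.1 in MS. Loops joined the bins at its start and other end 30 kb apart in both replicate 2 libraries, at 27.6 in LW and 25.2 in MS. FLNC was joined to ATP6V1F, CALU and LOC100518456 in 3 libraries each, all weakly, with a −log10 FDR of at most 7.86 where the loop ended at ATP6V1F and LOC100518456.

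POPDC2 was joined to ADPRH, 80 kb away, at 13.0 and 32.7 in LW and 16.6 in MS replicate 2, with no such loop in MS replicate 1, and to LOC102166037 at 5.76 and 3.28 in LW, with no loop there called in MS. Its longest loops, of 1700, 745 and 465 kb, were each called in 1 library and had a −log10 FDR of 2.16 to 2.63. SGCA had no loop that was called in more than 2 libraries, and it was joined to PPP1R9B in 2. It was joined to COL1A1 in LW replicate 1. DYSF had a loop of 215 kb to PAIP2B at 13.7 in MS replicate 2 alone, and its loop of 30 kb within the gene had 10.3 and 6.11 in LW and 6.02 in MS replicate 2. HSPB3 was joined over 20 kb to chr16:33735001-33740000, a bin that overlaps no RefSeq gene, at 76.0 in LW replicate 2 and 43.1 in MS replicate 2. In LW replicate 1 a loop led to the next bin, 25 kb away, at 34.5. In MS replicate 1 a loop led to the next bin on the other side, 15 kb away, at 3.85. A loop over 400 kb to chr16:34115001-34120000 was called in both LW libraries and MS replicate 2 at 2.64, 4.05 and 6.82. SNX18 was joined to HSPB3 in LW replicate 2. The loop of HSPB3 that was called in all 4 libraries spanned 10 kb and had 6.37 and 23.9 in LW against 3.52 and 20.8 in MS, the replicate 2 libraries being higher in both breeds.

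Of the 123 loops of the 10 genes in LW, 44.7% were found in MS too. The reverse share was 55.0% of the 100 loops in MS. Over all loops these shares were 34.7% and 44.2%. With each anchor allowed to lie 1 bin away, 70.7% of the LW loops and 81.0% of the MS loops of the 10 genes had a partner, against 58.7% and 72.8% over all loops. Only 9 of the 168 loops (5.36%) were called in all 4 libraries, of which 4 were at PDLIM3, 3 at LDB3, 1 at FLNC and 1 at HSPB3, and 60.7% were called in a single library, against 3.78% and 69.1% over all loops. The replicate 2 libraries shared 34 loops across the breeds, the replicate 1 libraries 19, the LW libraries 30 and the MS libraries 16. The share of LW loops found in MS rested on MS replicate 2, without which it fell to 20.3%.

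In GRID-seq, 7 of the 10 genes were listed as caRNAs in all 4 libraries, namely LDB3, MYOZ1, MYOT, FLNC, PDLIM3, SGCA and POPDC2. CSRP3, DYSF and HSPB3 were listed in none, and no other listed RNA lay inside any of the 10 genes. Reads of LDB3 could not be told apart from those of OPN4, a neighbouring gene that the lists give with the same reads and an interval that differs by a few bases. Likewise ENSSSCG00000015795 covered PDLIM3 on the same strand with nearly the same reads, and both values are uncertain for that reason. The listed interval of MYOT is 58.1 kb long against 19.9 kb for the RefSeq gene. It starts upstream, in a bin that overlaps KLHL3 and LOC106509573, so the reads of MYOT may include RNA from outside the RefSeq gene.

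LDB3 had the most reads, 42947 and 46955 in LW and 30530 and 36404 in MS. PDLIM3 had 25855 and 28603 in LW and 21247 and 25582 in MS. FLNC had 8380 and 9007 in LW and 15280 and 18421 in MS, so that each MS library was well above each LW library. MYOT had 9154 and 10247 in LW and 11357 and 13871 in MS. MYOZ1 had 5366 and 5668 in LW and 5186 and 6073 in MS, with the breeds overlapping before scaling. POPDC2 had 4264 and 4537 in LW and 2696 and 3268 in MS. SGCA had the fewest, 2444 and 2520 in LW and 2127 and 2580 in MS.

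Per kb of the listed RNA interval, the order of the levels was different. PDLIM3 had 639 to 860 reads per kb over the 4 libraries, MYOZ1 628 to 735 and LDB3 391 to 602, and the ranges of PDLIM3 and MYOZ1 overlapped. FLNC ranged from 301 to 661, with LW below and MS within the ranges of the genes above. MYOT had 158 to 239, POPDC2 140 to 235 and SGCA 143 to 174, and these 3 did not separate from each other. The median of all listed RNAs was 154 to 174 reads per kb in a library, so MYOT, POPDC2 and SGCA were at about the middle of the list and the other 4 genes above it. For MYOT this is the value over the listed interval, which is longer than the RefSeq gene.

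Between the breeds, 6 of the 7 caRNAs differed in reads with edgeR's quasi-likelihood test after TMM scaling (adjusted p under 0.05), 3 higher in LW and 3 higher in MS. The share of all 308 RNAs listed in every library that passed this test was 86.7%, 44.2% higher in LW and 42.5% higher in MS. The count for the 7 is thus near that of the list as a whole. The spread between the GRID-seq libraries of a breed was small beside the breed difference, and 93.8% of the 308 RNAs had libraries that did not overlap in scaled reads. In bulk tissue, fewer cells of a type and less RNA per cell cannot be told apart.

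FLNC showed the largest difference of the 7. It had a TMM-scaled CPM of 1202 ± 24.2 in LW and 2608 ± 25.8 in MS (SD, n = 2 libraries), 2.17-fold higher in MS (log2 difference, LW minus MS, −1.12, SE 0.02, adjusted p = 3.4e-06 with edgeR). Over its listed interval, which reaches upstream of the RefSeq gene, MYOT was 1.46-fold higher in MS, at 1339 ± 11.5 in LW and 1951 ± 37.3 in MS (adjusted p = 2.5e-05 with edgeR). MYOZ1 was 1.14-fold higher in MS (log2 −0.19, SE 0.03, adjusted p = 0.0044 with edgeR). POPDC2 was 1.32-fold higher in LW, at 608 ± 16.6 against 461 ± 6.34 (adjusted p = 0.00027 with edgeR). LDB3 was 1.20-fold higher in LW (adjusted p = 1.8e-05 with edgeR), a value it shares with OPN4. PDLIM3 was 1.04-fold higher in LW (adjusted p = 0.0057 with edgeR), and SGCA did not pass, at a log2 difference of −0.09 (SE 0.04, adjusted p = 0.10 with edgeR). The call of SGCA was not stable, since it passed without LW replicate 1 (log2 −0.14, adjusted p = 0.0137 with edgeR) and among RNAs with a mean of at least 1000 reads (adjusted p = 0.0496 with edgeR). The Z-disc genes thus moved both ways, with FLNC and the listed interval of MYOT higher in MS and LDB3 higher in LW.

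**Figure D3:**
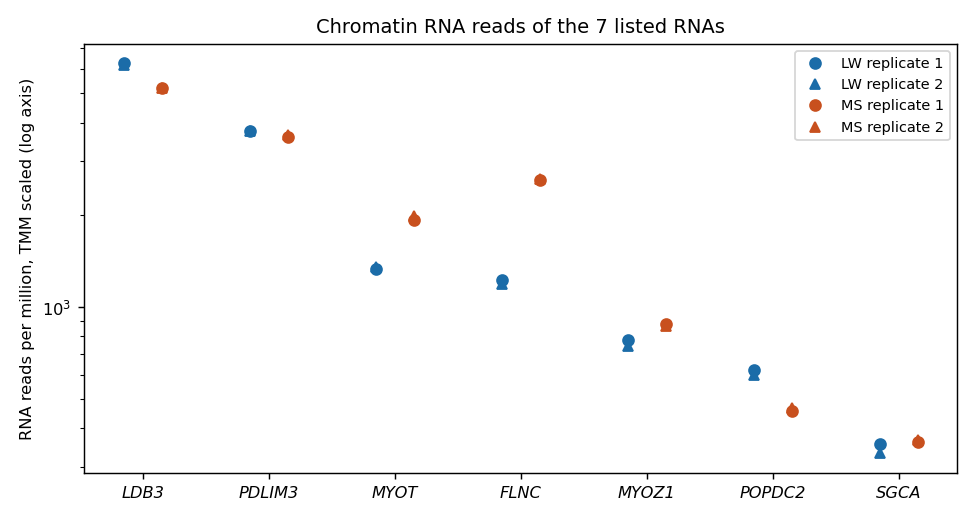
RNA reads as TMM-scaled CPM, on a log axis, for the 7 listed RNAs in each library. Blue is LW, orange MS, circles replicate 1 and triangles replicate 2. The libraries of a breed nearly coincide, FLNC and MYOT lie higher in MS, and LDB3 and POPDC2 lie higher in LW.

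The scaling moved the smaller of these differences. Scaling by library totals alone shifted the median log2 difference of all 308 RNAs to 0.13, against 0.00 with TMM, and changed the calls to 161 higher in LW and 99 higher in MS from 136 and 131. Under it MYOZ1 no longer passed (log2 −0.07, adjusted p = 0.20 with edgeR) and SGCA changed sign to 0.04. The summed reads of the 5 muscle fibre markers listed in every library were 136870 and 125062 CPM of listed reads in LW against 115900 and 105576 in MS, so LW was higher. TTN made up most of this sum, with 1016278 of 1243574 reads in LW replicate 2 and 697633 of 831295 in MS replicate 1. The sums of the 2 fibroblast markers listed in every library, COL1A1 and COL1A2, were 698 and 583 in LW against 923 and 822 in MS, so MS was higher. With COL3A1 added where it was listed, they were 1262 and 1079 in LW against 923 and 1495 in MS, and the breeds overlapped. The part of fibre and fibroblast content in the differences was not tested.

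Other genes of the same structures were followed as lists. Of 27 other Z-disc genes, 12 were listed in every library and all 12 passed the test, 8 higher in LW and 4 higher in MS, against 86.7% of all RNAs, 44.2% and 42.5%, so that passing is the rule in these lists. The median log2 difference was 0.18 against 0.00 over all RNAs tested. TCAP (telethonin, which caps titin at the Z-disc) had 654 and 728 reads in LW and 2086 and 2403 in MS and was 3.64-fold higher in MS (adjusted p = 2.3e-06 with edgeR). DES (desmin, the intermediate filament around the Z-disc) was 1.98-fold higher in MS, and SYNPO2L and ACTN2 were 1.25-fold and 1.16-fold higher in MS. Among those higher in LW were ACTN3 (the alpha-actinin of fast fibres), MYOZ3, PALLD, PDLIM5, MYPN, PDLIM7 and TTN, by 1.42-fold in ACTN3 and by 1.13-fold in TTN. Of 18 other membrane repair genes 3 were listed in every library. CAPN3 (a muscle calpain) was 1.58-fold and BIN1 (a membrane-bending protein of T-tubules) 1.33-fold higher in LW, while CAVIN1 had a log2 difference of 0.02 (adjusted p = 0.72 with edgeR). None of the 16 other dystrophin complex genes and neither of the other Popeye domain genes was listed in every library. Of 5 other small heat shock genes only HSPB8 was, at 1.30-fold higher in MS (adjusted p = 0.00027 with edgeR).

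In loop score and in summed RNA signal no gene of these lists had an adjusted p under 0.05 with limma. In loop score 0 of 25 tested Z-disc genes, 1 of 17 membrane repair genes, 1 of 15 dystrophin complex genes, 0 of 2 Popeye domain genes and 0 of 5 small heat shock genes had an unadjusted p under 0.05, against 5.33% of all genes, with median log2 differences of −0.12, 0.19, 0.39, 0.51 and −0.01 against 0.02 over all genes. DMD, the dystrophin gene, had a loop score of 11.14 and 8.89 in LW and 0 in both MS libraries (adjusted p = 0.80 with limma), and PDCD6, a calcium-binding protein of membrane repair, had 0 in both LW libraries and 9.80 and 2.26 in MS (adjusted p = 0.80 with limma). In summed RNA signal the same counts were 6 of 25, 4 of 17, 3 of 15, 1 of 2 and 4 of 5, against 15.8% of all genes, with median log2 differences of −0.27, −0.19, −1.60, 1.62 and −7.05 against −0.05. Several of these differences, such as those of ANKRD1 and HSPB6, are between signals near 0 and large ones, and an RNA listed in 1 breed alone gives signal in that breed alone.

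The deposited signal of an RNA on a DNA bin is scaled to the reads of that RNA, so it describes where an RNA sat and not how much of it there was. For each RNA the signal was divided into local (within 10 kb of the listed RNA interval), cis (the rest of its chromosome) and trans (other chromosomes). SGCA was almost wholly local, at 99.5% and 99.97% in LW and 99.8% and 94.4% in MS. MYOZ1 had a local share of 90.5% and 87.3% in LW against 93.4% and 85.2% in MS, and FLNC 94.8% and 90.9% in LW and 92.2% and 84.6% in MS. In these 3 RNAs the breeds overlapped.

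The other 4 RNAs reached further along their own chromosome. PDLIM3 had the lowest local share, 43.5% and 33.3% in LW and 55.5% and 55.8% in MS. LDB3 had 56.0% and 49.1% in LW and 67.1% and 59.4% in MS, POPDC2 65.7% and 48.7% in LW and 80.1% and 71.9% in MS, and MYOT 73.7% and 63.8% in LW and 86.1% and 84.9% in MS. In all 4 both MS libraries lay above both LW libraries. This was so for 43.2% of the 308 RNAs, and the opposite for 10.1%, so the direction is the common one of the lists. LDB3 RNA was found up to 86413 kb and PDLIM3 RNA up to 78215 kb from their genes on the same chromosome. A trans share above 0 was seen in at least 1 library for LDB3, MYOT, FLNC and PDLIM3, and FLNC in MS replicate 2 had the highest, 2.98% over 5 chromosomes.

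**Figure D4:**
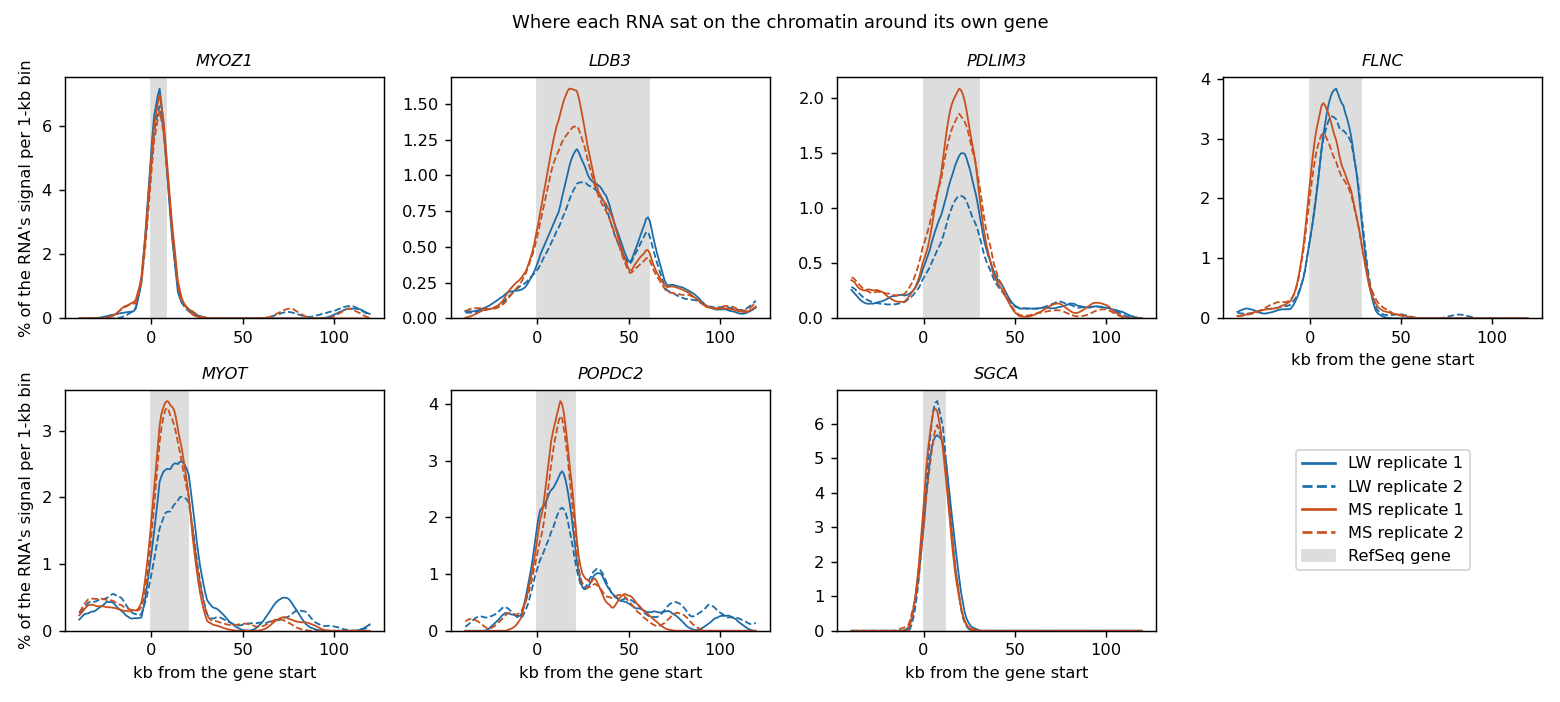
Share of each RNA's summed signal per 1-kb bin, in percent, against the distance in kb from the RefSeq start of its gene in the direction of transcription, for the 7 listed RNAs. Blue is LW, orange MS, solid lines replicate 1 and dashed lines replicate 2, and grey marks the RefSeq gene. SGCA and MYOZ1 have 1 narrow peak over the gene, with small further rises far downstream of MYOZ1, LDB3 has a second rise near its far end that is higher in LW, and the FLNC peak lies nearer to the start in MS.

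Within FLNC, the balance between the gene ends differed. On the bins within 5 kb of its start the signal was 12774 and 10329 in LW against 12618 and 9713 in MS, and on those at its other end it was 14592 and 12092 in LW against 6731 and 5856 in MS. The log2 ratio of other end to start was 0.19 and 0.23 in LW against −0.91 and −0.73 in MS, with no overlap. At the RefSeq ends of LDB3 it was 0.64 and 0.56 in LW against −0.61 and −0.65 in MS, a larger gap than in FLNC and a change of sign. MYOT had 0.69 and 0.84 in LW and 0.03 and 0.19 in MS, also with no overlap, and POPDC2 was higher in MS, at 0.60 and 0.68 against 0.10 and 0.52 in LW. In PDLIM3, MYOZ1 and SGCA the gap between the breed means was at most 0.13. MYOZ1 is only 7.91 kb long, so the windows at its ends share bins, which draws its ratio towards 0. For comparison with all RNAs the ratio was taken at the ends of the listed RNA interval, which in LDB3 and MYOT starts upstream of the RefSeq gene. There FLNC kept its values, LDB3 had 1.79 and 1.82 in LW and 1.24 and 1.42 in MS, MYOT overlapped, and PDLIM3 had 0.58 and 0.63 against 0.53 and 0.41. In this ratio of the listed interval, LW libraries lay above MS libraries in 57.4% of the 216 RNAs longer than 10 kb. They lay below them in 9.72%. FLNC, LDB3 and PDLIM3 thus went the way of most RNAs. POPDC2 went the less common way, at 0.25 and 0.64 in LW and 0.76 and 0.85 in MS.

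Among the listed RNAs, the own RNA gave most or about equal parts of the signal at the ends of the 7 listed genes. The signal of each RNA is relative to its own reads, so shares between RNAs are not shares of the amount of RNA. The own RNA made up 99.3% to 99.9% of the signal at MYOT, 97.8% to 99.7% at FLNC and 92.8% to 98.1% at SGCA. At POPDC2 it made up 99.7% to 99.98% in 3 libraries and 70.4% in LW replicate 2, where an unnamed transcript gave a signal of 5942. At MYOZ1 it made up 52.5% to 59.3%, and nearly all the rest came from SYNPO2L, a Z-disc gene next to it, with a signal of 26163 and 25934 in LW against 21714 and 21769 in MS. At LDB3 and PDLIM3 the own RNA made up 48.7% to 50.0%, with OPN4 and ENSSSCG00000015795, which share their reads, as the other part. At SGCA the second RNA was COL1A1, a collagen gene of fibroblasts, with 2399 and 1736 in LW and 923 and 565 in MS. This signal, which is relative to the reads of COL1A1, was higher in both LW libraries.

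The 3 genes with no listed RNA had almost no signal of listed RNAs at their ends, and their own RNA, which is not listed, cannot enter this signal. The summed signal was 0 in both LW libraries and MS replicate 1 and 4.49 in MS replicate 2 at CSRP3, 0 and 2.16 in LW and 0 and 19.4 in MS at DYSF, and 0 and 13.7 in LW and 16.0 and 33.0 in MS at HSPB3. What was there came from RNAs of other genes, among them TTN, CMTM4, ENSSSCG00000048037 and ENSSSCG00000048856. TTN RNA was found at the ends of all 10 genes in at least 1 library, in 8 gene windows in LW and 13 in MS. It was always a small part of the signal where the own RNA was listed. This part is not a share of the amount of RNA. The signal of each RNA is relative to its own reads, and TTN had 697633 to 1016278 reads per library. At SGCA the TTN signal was only 0.0355 in LW replicate 2 and 0.0267 in MS replicate 2, each in 1 bin. The paper describes TTN RNA as widely spread across the genome. The share of all genes with TTN RNA at their ends was not counted, so these counts are not shown to be particular to the 10 genes.

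No difference between the breeds in the summed signal of the listed RNAs at the gene ends passed the test with limma in any of the 10 genes. An adjusted p under 0.05 was reached by 0% of 23302 genes with signal, and 0 of the 10 had an unadjusted p under 0.05, against 15.8% of all genes, all of which also passed the study's fold threshold (log2 above 2). The differences in the 7 genes with a listed RNA lay between −0.21 in POPDC2 and 0.46 in FLNC (SE 0.86 and 0.88), and the largest was −2.85 in HSPB3 (SE 1.61, adjusted p = 0.60 with limma), at signals near 0. Before normalization the libraries did not overlap in 6 of the 10 genes, LW higher in MYOZ1, PDLIM3, FLNC and MYOT and MS higher in POPDC2 and HSPB3, against 37.2% of all genes, 16.7% with LW and 20.5% with MS higher. After quantile normalization PDLIM3 and MYOT overlapped and 5 of the 10 did not, against 36% of all genes, with LW higher in SGCA, MYOZ1 and FLNC (16.2% of all genes) and MS higher in POPDC2 and HSPB3 (19.8%). At FLNC this signal was higher in LW, at 27460 and 22479 against 19708 and 15914 in MS, while its reads were higher in MS, and the 2 are not on the same scale since the signal is relative to the reads.

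**Figure D5:**
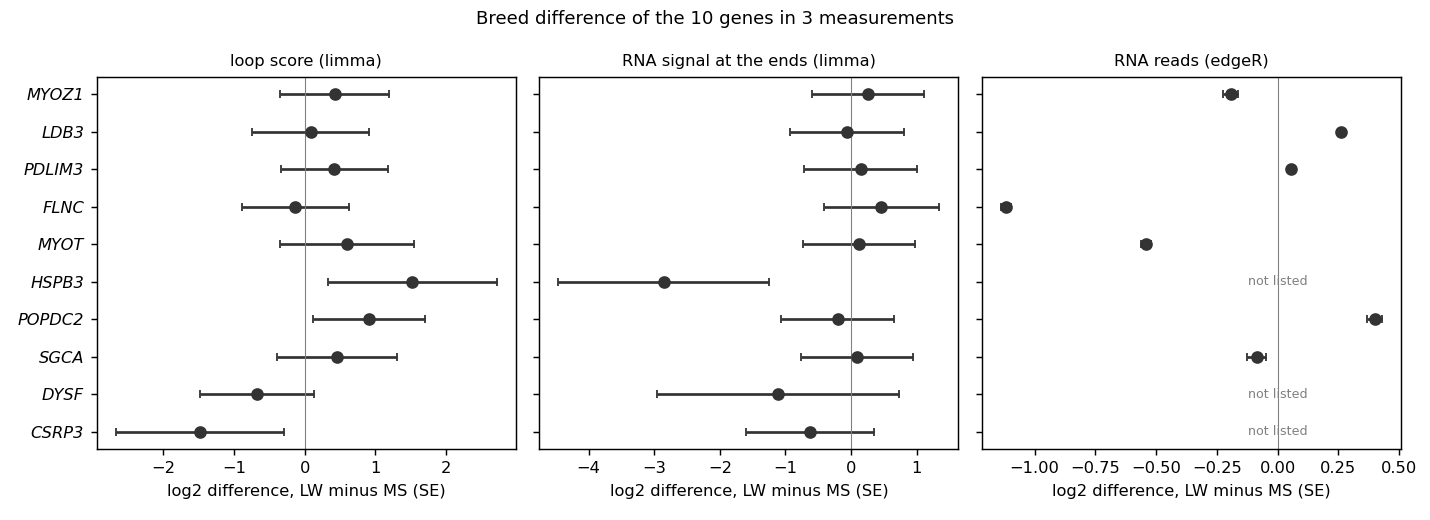
Difference between the breeds, LW minus MS on the log2 scale, in loop score (limma), in summed RNA signal at the gene ends (limma) and in RNA reads (edgeR), with bars of 1 SE. Each panel has its own scale. The bars of the first 2 panels are wide and none of these differences passed the test, while those of the reads are narrow, from −1.12 in FLNC to 0.40 in POPDC2.

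Loops and RNA could be laid over each other. Of the loop ends that lay more than 10 kb outside the RNA interval of the 7 listed genes, 62.5% and 71.4% of 56 in LW and 53.2% and 70.2% of 47 in MS carried the gene's own RNA. At LDB3 and PDLIM3 every such loop end carried it in every library, and at SGCA none did. MYOZ1, with the strongest loops, had its RNA on 33.3% and 50.0% of 12 loop ends in LW and on 7.14% and 64.3% of 14 in MS. Bins that are near a gene without being at a loop end were not compared here.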

How the data were processed

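Loops and caRNAs of 8 libraries (LW and MS, 2 per breed and assay) were grouped by the sample labels. The authors trimmed the HiChIP linker, mapped reads with BWA-MEM to Sscrofa11.1, removed duplicates with Pairtools and called loops between H3K27ac peaks and all 5-kb bins with FitHiChIP in each library. The deposited value per loop was read as its p-value after adjustment (FDR), since the lists end just under 0.01. For GRID-seq the authors mapped both ends with Bowtie2 and corrected for background. The deposited whole number of each RNA was read as a count of its reads, and the number deposited for an RNA on a 1-kb bin as its signal there after background correction. These lists carry no column names. The submitters' processing notes name Bowtie2 2.2.5 and SAMtools 1.9.

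The 10 genes and the lists were chosen with earlier results of these data known. Positions came from RefSeq. Strand came from the GRID-seq lists. Loop score and RNA signal were quantile-normalized, put on the log2(value + 1) scale, which understates the change of low genes, and compared with limma 3.58.1. Reads of the 308 RNAs listed in all libraries were compared with edgeR 4.0.16 (TMM, quasi-likelihood test, SE from the F value). DESeq2 1.42.0 was an alternative, run on loop scores with no normalization between libraries and on reads with its own size factors. P-values were adjusted by Benjamini-Hochberg over all features. An exact permutation test of 2 against 2 libraries cannot go below p = 0.333 and was not used. All fits were run on simulated data with planted changes. For limma the planted changes were larger than the differences of the 10 genes, so its power at those sizes was not tested. Depth per library is given as loops and RNA reads. Loop contacts were not analysed here, so no interval of a single loop is given. GRID-seq replicates differed by more than counting error (chi-square per degree of freedom 47.0 in LW and 58.7 in MS over the RNAs in both). Genes besides the 10 are named where a loop ended at them, where their RNA was among the 3 largest at a gene end, or where they passed a test or were the 2 most extreme of their list. Alternatives covered normalization, pseudocount, filters, windows, FDR, scaling, tools, the replicate block and each library left out. No sequences are shown, and the results of some other genes are not reported here.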

Additional observations from a re-analysis of the deposited data

How the results depend on the processing

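Of 150 refitted loop score differences of the 10 genes 135 kept their sign, of 138 RNA signal differences 129 did, and no setting gave any of the 10 an adjusted p under 0.05 in either. Loop score differences turned with no window in CSRP3 (1.48), LDB3 (−0.0495) and MYOT (−0.18), with a 5-kb window in SGCA (−0.72), and with the number of loops in MYOZ1 (−0.27) and FLNC (0.34). FLNC also turned without normalization (0.15) and with DESeq2 (0.20), which was likewise run on scores not normalized between libraries. With each library left out in turn the loop score differences ranged from −2.98 to 0.0201 in CSRP3, −0.34 to 0.0766 in FLNC, −0.12 to 3.16 in HSPB3, −0.39 to 0.56 in LDB3, −0.36 to 1.58 in MYOT and −0.19 to 1.10 in SGCA. RNA signal differences turned without the gene's own RNA in FLNC (−2.71), MYOT (−0.92), PDLIM3 (−1.57) and POPDC2 (3.82), and in LDB3 with a 1-kb window (0.037) or with OPN4 and LDB3 counted once (0.013), a setting chosen after seeing the data. With each library left out they ranged from −3.14 to 0.91 in DYSF and −0.22 to 0.11 in LDB3. The causes were not tested.

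In RNA reads 5 to 7 of the 7 RNAs passed under every setting. SGCA turned with library totals (0.0412) and passed with a mean of at least 1000 reads (−0.11, adjusted p = 0.0496 with edgeR) and without LW replicate 1 (−0.14, adjusted p = 0.0137 with edgeR). CAVIN1 turned with a mean of at least 1000 reads (−0.0066), ranged from −0.0373 to 0.0701 with each library left out, and passed with library totals (0.14, adjusted p = 0.0190 with edgeR).

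The share of LW loops also called in MS, 44.7%, was 70.7% with anchors allowed 1 bin away, also chosen after seeing the data, 30.0% for loops in both libraries of a breed, and 20.3% to 55.1% with each library left out. The median local share, 82.4%, was 27.1% as a share of bins, 96.9% within 100 kb, and 73.7% to 84.6% with each library left out.

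The replicate numbers are not tied to a shared animal or batch by the labels. Deviations of same-numbered libraries correlated at 0.354 (loop score), −0.00621 (RNA signal) and 0.939 (RNA reads) across features. With a replicate block, 0, 0 and 7 of the genes passed in these 3 measures, SGCA being the added one (−0.09, adjusted p = 0.0416 with edgeR).

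Over all genes, adjusted calls in loop score were 0, but 56 without a filter, 2 with the number of loops and 1 without LW replicate 1, and in RNA signal 0, but 654 without a filter. The 822 genes past the study's loop threshold became 276 with DESeq2 on scores not normalized between libraries, 156 with the number of loops, 1388 with a pseudocount of 0.1 and 1289 with the replicate block. Of the 10 genes, 1 passed that threshold without LW replicate 2 in either measure, and 1 in RNA signal without the own RNA. Low loop numbers limit CSRP3 and DYSF, and signals near 0 limit CSRP3, DYSF and HSPB3.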

Other observations

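Some related genes had their RNA listed in both libraries of one breed and in neither of the other, and so entered no test of reads. These RNAs were picked after their values were seen. ANKRD1, a stretch-responsive titin-binding protein, had 850 and 1026 reads in MS, XIRP1, an actin-binding repeat protein, 2209 and 2599, LMCD1, a LIM domain protein, 14821 and 17780, and CRYAB, a small heat shock protein that guards desmin, 975 and 1010. Among the small heat shock genes, HSPB1 had 714 and 855 reads and HSPB6 476 and 455 in MS. In the other direction, SGCD, delta-sarcoglycan, had 57299 and 63255 reads in LW. Of all 1122 listed RNAs, 85 were listed in both MS libraries and neither LW library, and 69 the other way. The smallest listed reads were 441 and 446 in LW against 432 and 455 in MS, so HSPB6 lay close to the limit of the lists, and an RNA that is not listed is not shown to be absent.

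The summed RNA signal is built from listed RNAs only, so where a gene's RNA is not listed in a breed it adds nothing there, and the values that follow are not independent of the listing. At ANKRD1 it was 0 and 0.492 in LW against 52066 and 46042 in MS (adjusted p = 0.11 with limma), and at HSPB6 it was 13.3 and 29.6 in LW against 58066 and 44658 in MS (adjusted p = 0.11 with limma). At HSPB2, which has no listed RNA, nearly all the signal in MS came from CRYAB RNA, 42243 and 38122. At SGCD it was 742 and 638 in LW and 0 in both MS libraries (adjusted p = 0.11 with limma). None of these differences passed the test after adjustment.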
